A study of Mus musculus with 11 samples.

Results

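The 9 genes described here act in blood clotting and in the dissolution of clots: Vwf, Thbd, Procr, F3, Tfpi, Plat, Plau, Plaur and Thbs1. They were taken by name from the 32285 genes of the deposited feature list, and each name was found there. The genes were measured by single-cell RNA sequencing (10x Genomics 3' kit) of cells from the right brain of mice, 1 library per mouse, after lysis of red blood cells. Blood flow in the middle cerebral artery was blocked and then restored (MCAO/R), or the mice had sham surgery, on either a wild-type (WT) or an Lrg1-/- background. The sham + WT group held 3 mice, MCAO/R + WT 2, sham + Lrg1-/- 3 and MCAO/R + Lrg1-/- 3. The study's methods describe an occlusion of at most an hour and several lengths of reperfusion without assigning them to the sequenced mice, and its discussion speaks of brain tissue examined at an hour. WT mice were young adult male C57BL/6. The Lrg1 deletion was present in every cell of the body, on a C57BL/6 background whose substrain is given in more than one way. The methods give a greater age for the Lrg1-/- mice than for the WT mice and no sex for them. The Lrg1-/- mice also came from another source, so an effect of the deletion and of the source or age of the mice cannot be told apart. Mice are the replicates, and p-values measure the spread between mice.

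Clotting is held in check at the vessel wall. Endothelial cells store von Willebrand factor, which tethers platelets, and carry on their surface thrombomodulin and the endothelial protein C receptor, which together turn thrombin towards the activation of the anticoagulant protein C. Tissue factor, the trigger of clotting, is kept away from blood in cells around the vessels, astrocytes among them in the brain, and is blocked by tissue factor pathway inhibitor. Clots are dissolved by plasmin, which is made from plasminogen by the tissue-type and the urokinase-type plasminogen activators, the latter acting at its receptor.

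Of 155804 barcodes, 132437 passed the limits of more than 500 genes, more than 1000 unique molecular identifiers (UMIs, 1 per captured transcript) and less than 25% mitochondrial UMIs. Doublets made up 6555 of them and were removed, and 95014 cells were assigned to 19 cell types by marker genes. The other 30868 cells stayed unnamed, 21846 of them in the MCAO/R + Lrg1-/- group. Any 2 libraries shared between 5 and 146 barcodes, at most 1.15% of the smaller library. Lrg1 was detected in endothelial cells of all 5 WT libraries and was at 0 in those of the 6 Lrg1-/- libraries. The 8 endothelial markers were all detected in endothelial cells of every library, with summed levels of 14329.5 to 22351.6 CPM. CPM is the number of UMIs of a gene among 1000000 UMIs of all genes, summed over the cells of a type in a library. RNA of other cells was more abundant in endothelial cells of Lrg1-/- libraries. The 6 erythroid markers summed to 20515 to 35940.3 CPM in them and to 686 to 1629.7 CPM in WT libraries. The choroid plexus epithelial markers summed to 2709.6 to 8792 and 120.2 to 745 CPM. The number of deposited barcodes was a whole multiple of 50 in 4 of the 6 Lrg1-/- libraries and in 0 of the 5 WT libraries. Among cells that passed the limits, the median number of UMIs per cell was 11504 and 9611 in MCAO/R + WT (replicates 1 and 2). It was 3533, 6456.5 and 3190 in MCAO/R + Lrg1-/- (replicates 1, 2 and 5). After sham surgery it was 6064 to 9943 in WT and 4674.5 to 7911 in Lrg1-/- libraries. The median mitochondrial share was 2.19% to 2.91% in WT and 2.43% to 3.84% in Lrg1-/- libraries. The part of these differences between libraries in the genotype differences below was not tested.

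After stroke in WT mice, endothelial cells held more RNA of Vwf, Procr, Plat and Plaur and less of Tfpi. After stroke, the endothelial cells of Lrg1-/- mice held less Plat and more Tfpi than those of WT mice. Thbs1 was also called higher in them, at 5.05 to 18.1 CPM, and the part of monocyte RNA in this was not tested. Plat was called lower and Thbs1 higher in Lrg1-/- mice after sham surgery too. Of the 9 genes, only Tfpi had a called difference between the stroke effects of the genotypes in endothelial cells. Differences were tested on UMIs summed per mouse and cell type with edgeR's quasi-likelihood test, with all groups in one fit. A call needed an adjusted p (Benjamini-Hochberg, over all genes tested) under 0.05 and a natural-log fold change beyond 0.25 in either direction. For MCAO/R + WT against sham + WT, 5 of the 9 genes were called in endothelial cells, 4 higher and 1 lower, where 21.1% of all genes tested were called. The median log2 fold change was 1.02 over the 9 genes and 0.01 over all genes. For MCAO/R + Lrg1-/- against MCAO/R + WT, 3 of 9 were called, 2 higher and 1 lower, beside 28.4% of all genes, with medians of 0.00 and 0.01. For sham + Lrg1-/- against sham + WT, 2 of 9 were called, 1 in each direction, beside 18.1% of all genes, with medians of 0.20 and 0.01. For MCAO/R + Lrg1-/- against sham + Lrg1-/-, 5 of 9 were called, 4 higher and 1 lower, beside 22.3% of all genes, with medians of 0.93 and 0.01. The difference between the stroke effects of the genotypes (the interaction) was called for 1 of 9 genes, beside 2.99% of all genes. The share of the 9 genes called lay near that of all genes in the comparisons of genotypes and above it in both comparisons of stroke with sham. The 9 genes were chosen with earlier results of these data known. The shares and medians are thus a description and not a test of the genes as a set. These comparisons share groups of mice, so their values are set side by side and not counted as separate support.

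**Figure D1:**
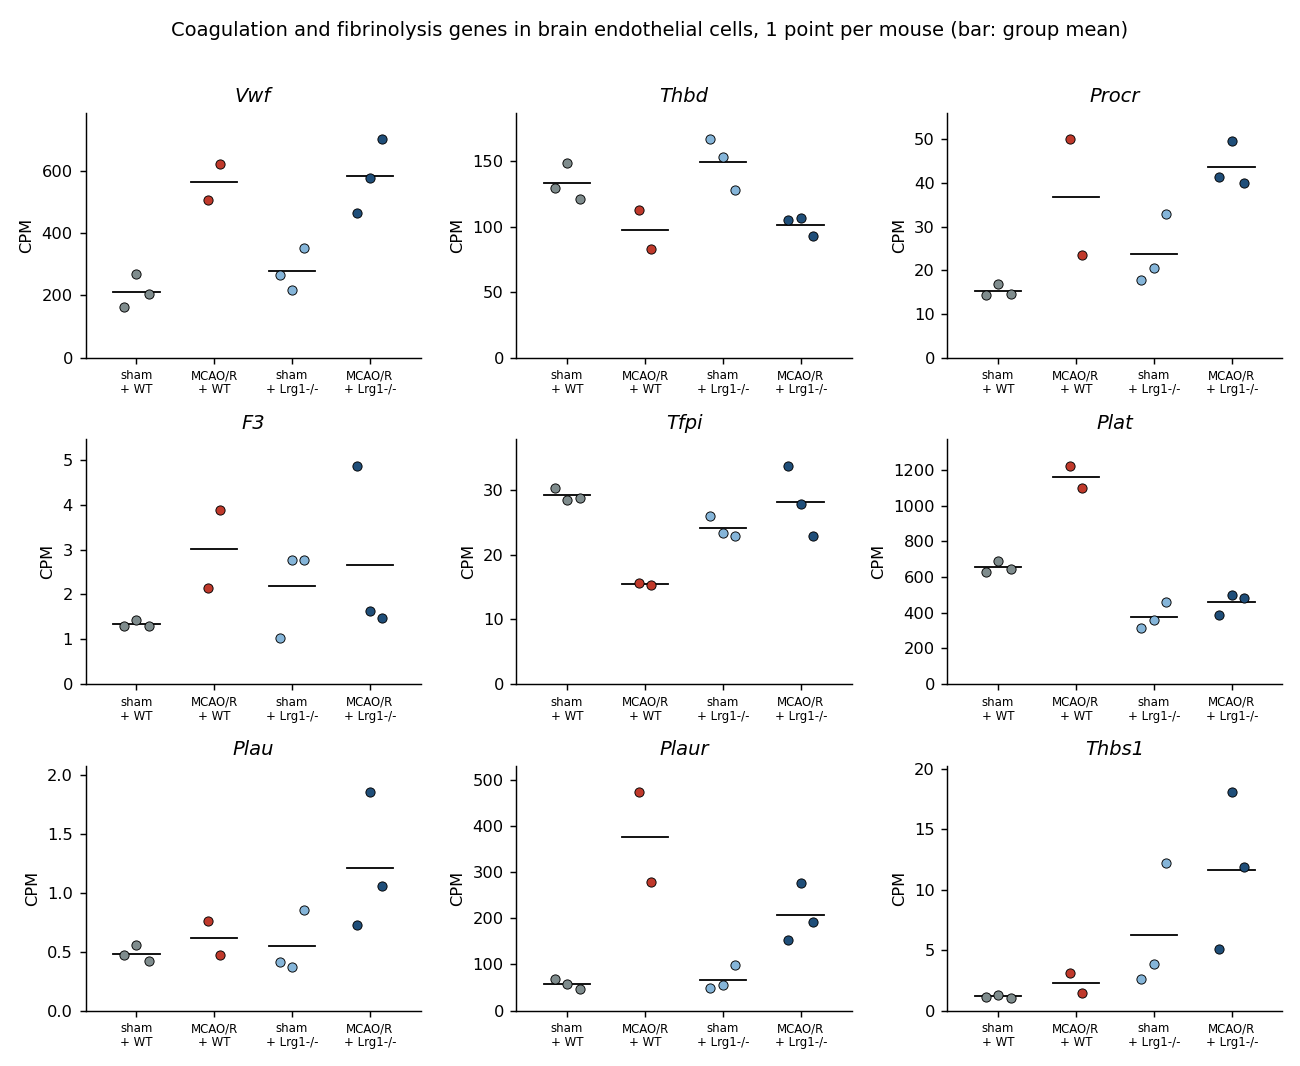
Level of each of the 9 genes in endothelial cells, in CPM on a linear axis from 0, with 1 point per mouse in the 4 groups and a bar at each group mean. Plat lay between 316 and 502 CPM in the 6 Lrg1-/- mice and between 629 and 1225 CPM in the 5 WT mice, and Plaur was highest in the MCAO/R + WT group.

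The genes differed in the cell types that held most of their RNA. As the mean of the group means, Vwf was at 409.8 CPM in endothelial cells, with group means of 212 to 583 CPM. No group mean reached this range in any other type, of which ependymal cells (48.2 CPM) and capillary endothelial cells of the choroid plexus (40.1 CPM) came closest. The ependymal value rests on sham + Lrg1-/- replicate 5, at 306 CPM against 12.3 to 41.9 CPM in the other 10 libraries. Thbd was highest in capillary endothelial cells of the choroid plexus (244 CPM), followed by endothelial cells (120.4) and fibroblasts (101), and the group means of the last pair overlapped. Procr was at 33.5 CPM in vascular smooth muscle and 29.9 CPM in endothelial cells, with overlapping group means.

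F3 had its highest levels outside the endothelium, in astrocytes (489.7 CPM) and fibroblasts (394), whose group means overlapped and lay far above the 37.2 CPM of ependymal cells. Tfpi was highest in pericytes (168 CPM) and fibroblasts (127), and endothelial cells were at 24.2 CPM, within the range of microglia (28.2). Plat was at 908 CPM in pericytes, 664 in endothelial cells and 477 in fibroblasts. The group means of endothelial cells overlapped those of pericytes and of fibroblasts, while those of pericytes (687 to 1255 CPM) and fibroblasts (408 to 574 CPM) did not overlap each other. The myeloid cells led for the remaining genes. Plau was highest in border-associated macrophages (109 CPM, against 23.6 in microglia). Plaur was highest in monocyte-derived cells (569.7) and neutrophils (514), and Thbs1 was at 655 in monocyte-derived cells, 354 in vascular smooth muscle and 330.4 in neutrophils. The Thbs1 group means of monocyte-derived cells ranged from 57.5 to 1342 CPM and overlapped those of vascular smooth muscle (221 to 514 CPM). In both sham groups monocyte-derived cells lay below smooth muscle, and neutrophils had values in the stroke groups only.

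**Figure D2:**
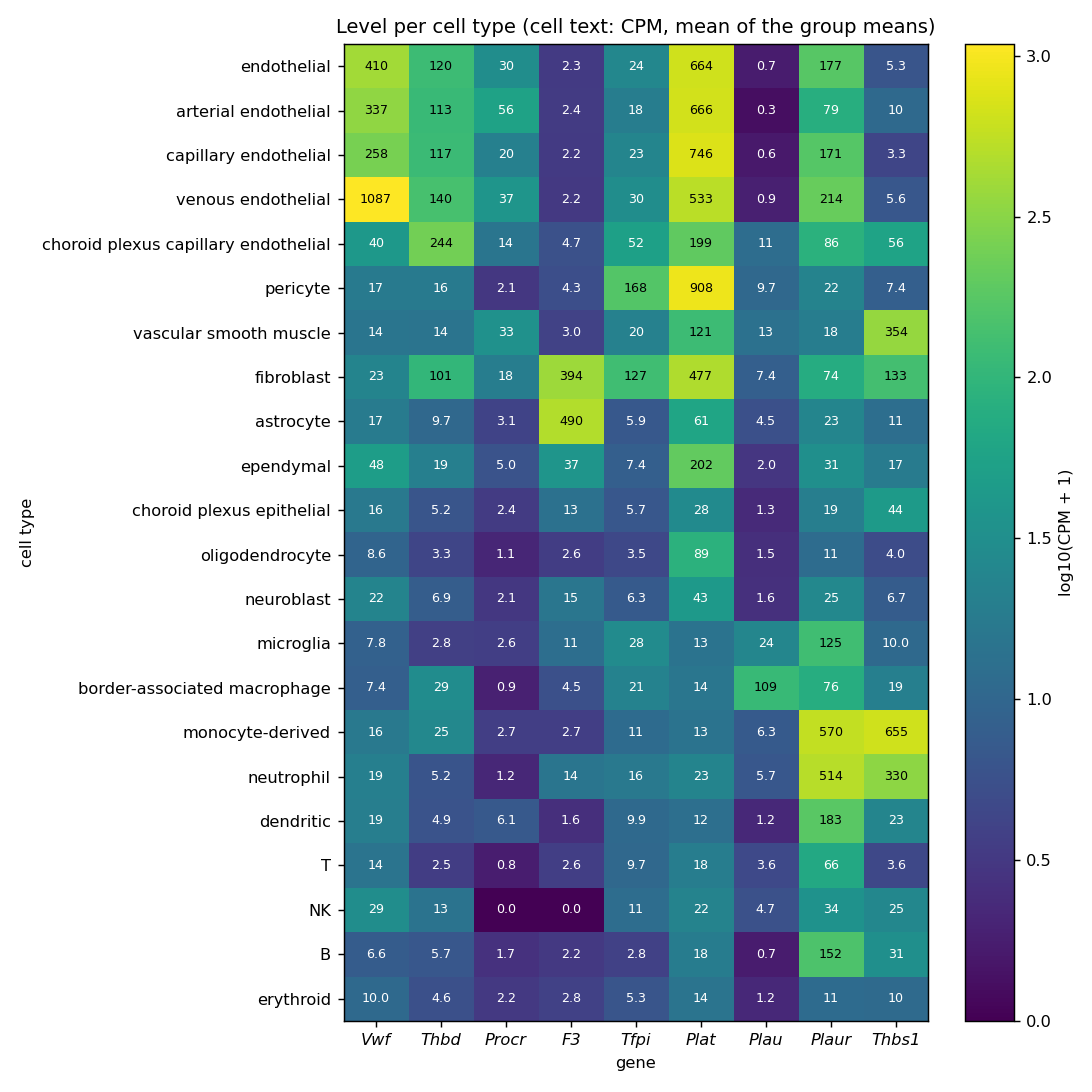
Level of each of the 9 genes in the named cell types, as the mean of the group means, with log10(CPM + 1) in colour and CPM as text. The brightest cells are venous endothelial cells for Vwf, choroid plexus capillary endothelial cells for Thbd, astrocytes and fibroblasts for F3, pericytes for Plat and Tfpi, border-associated macrophages for Plau and monocyte-derived cells for Plaur and Thbs1.

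Vwf (GRCm38, chromosome 6, 125546774 to 125686679, plus strand) encodes the multimeric protein that tethers platelets and carries factor VIII. Its level in endothelial cells was 163, 268 and 204 CPM in the sham + WT mice (replicates 1, 2 and 3), 509 and 622 in MCAO/R + WT (replicates 1 and 2). It was 266, 219 and 352 CPM in sham + Lrg1-/- and 467, 579 and 703 in MCAO/R + Lrg1-/- (replicates 1, 2 and 5 of each), an order of mice kept in all such lists below. Both stroke groups lay above both sham groups with no overlap, and within stroke and within sham the genotypes overlapped. Vwf rose after stroke by 1.45 ± 0.24 (log2 fold change ± SE, adjusted p = 0.00084) in WT and by 1.05 ± 0.22 (adjusted p = 0.0045) in Lrg1-/- mice. The genotypes differed by -0.00 ± 0.24 after stroke (adjusted p = 1.0) and by 0.40 ± 0.22 after sham surgery (adjusted p = 0.22). The interaction was -0.40 ± 0.32 (adjusted p = 0.56).

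The log2 fold change of Vwf with stroke was larger in arterial and capillary cells, where its sham levels were lowest, than in venous cells. Arterial cells held 95.1, 147 and 138 CPM in sham + WT and 577 and 532 in MCAO/R + WT. The sham + Lrg1-/- mice had 127, 165 and 161, and the MCAO/R + Lrg1-/- mice 336, 547 and 666. The change with stroke was 2.16 ± 0.22 (adjusted p = 6.2e-06) in WT and 1.80 ± 0.22 (adjusted p = 0.00013) in Lrg1-/- mice. In capillary cells the change was 1.89 ± 0.20 (adjusted p = 1.5e-05) and 1.46 ± 0.19 (adjusted p = 0.00027). Venous cells, with 652, 1026 and 827 CPM in sham + WT and 1056 and 1357 in MCAO/R + WT, started at a higher level. Those of Lrg1-/- mice held 803, 847 and 1066 CPM after sham surgery and 1353, 1294 and 1561 after stroke. In both genotypes the venous stroke levels lay above the sham levels with no overlap. The venous change of 0.53 in WT was not called (adjusted p = 0.063), while that of 0.58 ± 0.17 in Lrg1-/- was (adjusted p = 0.032). The Lrg1-/- call held in 2 of the 6 fits that left out 1 mouse (0.53 to 0.76). Whether the change differed between the zones was not tested.

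Vwf was also called in oligodendrocytes, at 2.85, 2.70 and 2.42 CPM in sham + WT and 9.52 and 8.05 in MCAO/R + WT (1.65 ± 0.47, adjusted p = 0.023). The ratio of Vwf to the summed endothelial markers in those oligodendrocytes was 0.00803 to 0.00990 in sham + WT and 0.0271 to 0.0314 in MCAO/R + WT. In endothelial cells themselves it was 0.0078 to 0.0124 and 0.0292 to 0.0323. The ratios thus moved together in both cell types, and the part of endothelial RNA in the oligodendrocyte value was not tested. In choroid plexus epithelial cells Vwf was at 3.33, 4.07 and 8.31 CPM in sham + WT and 9.02, 14.9 and 23.0 in sham + Lrg1-/- (1.74 ± 0.52, adjusted p = 0.028). The ratio to the summed endothelial markers was there 0.00527 to 0.00915 and 0.0132 to 0.0154, and the part of endothelial RNA was again not tested. Leaving out 1 mouse ended the oligodendrocyte call in each of 5 fits (1.58 to 1.74) and the epithelial call in 4 of 6, without sham + WT replicate 1 or 2 or sham + Lrg1-/- replicate 2 or 5 (1.36 to 2.20).

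Thbd (chromosome 2, 148404466 to 148408188, minus strand) encodes thrombomodulin, the thrombin receptor that switches thrombin to the activation of protein C. Endothelial cells held 129.8, 148 and 121 CPM in sham + WT and 113 and 82.7 in MCAO/R + WT. Levels in Lrg1-/- mice were 167, 153 and 128 (sham) and 105, 106 and 92.6 (MCAO/R). Each stroke group lay below its sham group with no overlap. Thbd fell with stroke in Lrg1-/- mice (-0.57 ± 0.14, adjusted p = 0.010), and in WT its change of -0.41 ± 0.15 was not called (adjusted p = 0.075). The interaction was -0.17 ± 0.20 (adjusted p = 0.73).

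The fall of Thbd was called for both genotypes in venous and in arterial cells. Venous cells held 176, 207 and 139 CPM in sham + WT and 86.6 and 83.4 in MCAO/R + WT. Of the Lrg1-/- mice, the sham group had 232, 223 and 150.3 and the MCAO/R group 87.0, 114 and 100.02, with no overlap between stroke and sham. The change was -1.03 ± 0.20 (adjusted p = 0.0021) in WT and -1.02 ± 0.19 (adjusted p = 0.0025) in Lrg1-/- mice. In arterial cells it was -0.58 ± 0.14 (adjusted p = 0.015) and -0.53 ± 0.14 (adjusted p = 0.023), and capillary cells passed in Lrg1-/- mice alone (-0.44 ± 0.13, adjusted p = 0.037). When 1 mouse was left out, the venous calls held in each of 5 and 6 fits, the arterial calls in 2 of 5 (-0.64 to -0.57) and 3 of 6 (-0.65 to -0.43), and the capillary call in 1 of 6 (-0.53 to -0.38). Outside the endothelium, pericytes had 18.8, 24.2 and 28.6 CPM in sham + WT and 13.4 and 6.79 in MCAO/R + WT (-1.29 ± 0.36, adjusted p = 0.027), a call kept in 2 of 5 such fits (-1.77 to -0.82). Between the genotypes, Thbd was called by edgeR in 0 of 10 cell types after stroke (3 at an unadjusted p under 0.05, 0 called by DESeq2) and 0 of 9 after sham surgery (4 and 1). Of all genes, 28.4% and 18.1% were called in endothelial cells in these comparisons. Outside them, 13.5% and 12.1% of all pairs of gene and cell type were called.

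Procr (chromosome 2, 155751117 to 155755471, plus strand) encodes the endothelial protein C receptor, which presents protein C to thrombomodulin-bound thrombin. Endothelial cells held 14.4, 16.9 and 14.6 CPM in sham + WT and 50.03 and 23.5 in MCAO/R + WT. Without Lrg1 it was at 17.7, 20.4 and 32.9 after sham surgery and at 41.3, 49.7 and 40.0 after stroke. Both stroke groups lay above their sham groups, with a wide gap between the MCAO/R + WT mice. Procr rose by 1.31 ± 0.29 in WT (adjusted p = 0.0055) and by 0.93 ± 0.28 in Lrg1-/- mice (adjusted p = 0.03). Without MCAO/R + WT replicate 1 the WT value was 0.60 and was not called, and the Lrg1-/- call was lost without sham + Lrg1-/- replicate 1 or 2 or MCAO/R + Lrg1-/- replicate 2 (lowest value 0.71).

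Procr had its highest mean level among the 3 zones in arterial cells, with 24.9, 29.7 and 27.6 CPM in sham + WT and 84.8 and 66.0 in MCAO/R + WT. In Lrg1-/- mice the level was 31.7, 40.4 and 70.4 after sham surgery and 69.7, 77.4 and 72.9 after stroke. There the gene was called for stroke in WT (1.49 ± 0.22, adjusted p = 0.00017). It was also called for stroke in Lrg1-/- (0.79 ± 0.23, adjusted p = 0.034) and for the genotypes after sham surgery (0.69 ± 0.21, adjusted p = 0.036). In the last comparison sham + Lrg1-/- replicate 5 was highest. Capillary cells changed by 1.55 ± 0.28 (adjusted p = 0.00099) and 1.29 ± 0.31 (adjusted p = 0.012) with stroke. In vascular smooth muscle, Procr was at 21.3 and 14.7 CPM in MCAO/R + WT and at 18.1, 94.0 and 38.7 in MCAO/R + Lrg1-/- (1.70 ± 0.47, adjusted p = 0.026), with overlap between the groups. In fits that left out 1 mouse, the arterial call for the genotypes held in 1 of 6 (0.41 to 0.91) and both calls for stroke in WT in 5 of 5. The arterial and capillary calls for stroke in Lrg1-/- held in 3 of 6 each (0.57 to 1.07 and 1.04 to 1.57) and the smooth muscle call in 2 of 5 (0.84 to 1.99).

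Tfpi (chromosome 2, 84432855 to 84476775, minus strand) encodes the inhibitor of tissue factor and factor X activation. Endothelial cells held 30.4, 28.4 and 28.7 CPM in sham + WT and 15.6 and 15.3 in MCAO/R + WT. The sham + Lrg1-/- mice had 25.9, 23.4 and 22.8, and the MCAO/R + Lrg1-/- mice 33.7, 27.9 and 22.9. The MCAO/R + WT mice lay below all other mice, and the other 3 groups overlapped or lay close together. Tfpi fell with stroke in WT mice by 0.88 on the log2 scale (SE 0.13, adjusted p = 0.00032) and did not pass the test in Lrg1-/- mice (0.21 ± 0.12, adjusted p = 0.22). After stroke it was higher in Lrg1-/- than in WT mice by 0.82 ± 0.13 (adjusted p = 0.00066), and the interaction was 1.09 ± 0.17 (adjusted p = 0.0072).

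The fall in WT was called in all 3 zones, with log2 fold changes of -1.15 ± 0.28 in arterial (adjusted p = 0.012), -0.93 ± 0.12 in capillary (adjusted p = 9.1e-05) and -1.02 ± 0.22 in venous cells (adjusted p = 0.0041). The difference between the genotypes after stroke was called in venous and capillary cells. Venous cells had 37.1, 36.2 and 28.2 CPM in sham + WT and 17.3 and 15.8 in MCAO/R + WT. Levels in Lrg1-/- mice were 23.0, 29.5 and 23.6 (sham) and 60.6, 34.7 and 31.5 (MCAO/R). The genotype difference after stroke was 1.25 ± 0.23 (adjusted p = 0.0027) and the interaction 1.63 ± 0.32 (adjusted p = 0.029). In capillary cells the genotype difference was 0.43 ± 0.14 (adjusted p = 0.041). Capillary cells of Lrg1-/- mice held 29.3, 23.2 and 23.5 CPM after sham surgery and 25.4, 20.7 and 19.0 after stroke. Arterial cells of these mice held 19.9, 21.5 and 23.5 CPM after sham surgery and 24.3, 16.8 and 10.1 after stroke. The interaction of Tfpi was called in neither of these zones. Outside the endothelium, Tfpi was higher in MCAO/R + Lrg1-/- than in MCAO/R + WT in vascular smooth muscle (0.89 ± 0.24, adjusted p = 0.026) and in oligodendrocytes (1.65 ± 0.39, adjusted p = 0.0085). Oligodendrocytes held only 2.91 and 1.31 CPM in MCAO/R + WT and 5.12, 5.82 and 6.87 in MCAO/R + Lrg1-/-. The part of RNA from cells richer in Tfpi in these values was not tested. In microglia Tfpi rose with stroke in Lrg1-/- mice (1.15 ± 0.24, adjusted p = 0.0020). When 1 mouse was left out, the venous genotype difference held in 5 of 5 fits and the microglial rise in 6 of 6. The arterial fall held in 3 of 5 (not without either MCAO/R + WT mouse) and the capillary genotype difference in 1 of 5 (0.34 to 0.46). The venous interaction held in 3 of 11 (1.44 to 1.77), the smooth muscle value in 1 of 5 (0.75 to 1.03) and the oligodendrocyte value in 4 of 5 (1.15 without MCAO/R + WT replicate 2).

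F3 (chromosome 3, 121723537 to 121735048, plus strand) encodes tissue factor, the receptor of factor VIIa that starts clotting. In endothelial cells it stood between 1.04 and 4.87 CPM in all 11 libraries and was called in no comparison, the largest change being 1.17 ± 0.44 with stroke in WT (adjusted p = 0.079). Astrocytes held 488, 585 and 650.0 CPM in sham + WT and 694 and 887 in MCAO/R + WT. Of the Lrg1-/- mice, the sham group had 253, 259 and 267 and the MCAO/R group 485, 292 and 224. All Lrg1-/- mice lay below all WT mice. F3 in astrocytes was lower in Lrg1-/- mice after stroke (-1.20 ± 0.28, adjusted p = 0.039) and after sham surgery (-1.003 ± 0.26, adjusted p = 0.045). The latter call was lost when any 1 sham library was left out (-1.13 to -0.93), and the former without MCAO/R + WT replicate 2 or MCAO/R + Lrg1-/- replicate 2 or 5 (-1.60 to -1.01 over 5 fits). The astrocytes' own 8 markers moved with it, at 14223 to 17839.9 CPM in WT and 4676 to 8187 CPM in Lrg1-/- mice. The ratio of F3 to their sum was 0.0320 to 0.0440 in sham + WT, 0.0488 to 0.0497 in MCAO/R + WT, 0.0317 to 0.0572 in sham + Lrg1-/- and 0.0363 to 0.0690 in MCAO/R + Lrg1-/-. Relative to these markers the genotypes overlapped.

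Promoter sequences were matched for 4 of the 9 genes in a RefSeq table (GRCm38.p6). They are shown for Procr, F3 and Plaur, which were called higher after stroke in WT mice in endothelial cells or microglia, and for Tfpi, which was called lower. Each run is the 250 bases before the start annotated in that table, 5' to 3' on the gene's strand, with capitals for matches on either strand to an AP-1 motif (TGANTCA), a KLF motif (CCACCC), an SP1 motif (GGGCGG) or the core of the TATA box (TATAAA). The coordinates are chr2:155750967-155751216 (plus) for Procr, chr3:121723287-121723536 (plus) for F3, chr7:24462233-24462482 (plus) for Plaur and chr2:84476760-84477009 (minus) for the start of Tfpi that lies farther upstream.
Procr: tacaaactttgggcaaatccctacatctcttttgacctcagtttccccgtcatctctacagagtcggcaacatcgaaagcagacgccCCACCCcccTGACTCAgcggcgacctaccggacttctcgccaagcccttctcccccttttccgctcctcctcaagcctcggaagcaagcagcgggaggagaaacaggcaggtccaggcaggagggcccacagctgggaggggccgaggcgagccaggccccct
F3: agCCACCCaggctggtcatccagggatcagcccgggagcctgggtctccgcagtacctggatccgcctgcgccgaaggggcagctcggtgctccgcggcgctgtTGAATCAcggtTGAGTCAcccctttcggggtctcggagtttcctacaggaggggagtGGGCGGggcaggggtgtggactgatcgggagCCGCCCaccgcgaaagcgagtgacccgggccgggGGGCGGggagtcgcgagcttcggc
Plaur: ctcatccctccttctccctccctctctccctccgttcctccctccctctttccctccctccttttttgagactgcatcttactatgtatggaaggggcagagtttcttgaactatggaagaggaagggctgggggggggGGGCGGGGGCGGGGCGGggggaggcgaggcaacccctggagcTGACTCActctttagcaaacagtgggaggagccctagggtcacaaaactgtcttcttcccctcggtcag
Tfpi: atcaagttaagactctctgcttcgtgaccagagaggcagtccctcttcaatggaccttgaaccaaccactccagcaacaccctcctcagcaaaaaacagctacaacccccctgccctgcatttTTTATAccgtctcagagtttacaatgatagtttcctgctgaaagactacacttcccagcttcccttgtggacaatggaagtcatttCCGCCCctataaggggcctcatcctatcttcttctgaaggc
Procr holds 1 KLF and 1 AP-1 match, F3 holds 1 KLF, 2 AP-1 and 3 SP1 matches, and Plaur holds 1 AP-1 match and 3 SP1 matches, of which the last pair overlap by 1 base. The Tfpi window holds 1 TATA and 1 SP1 match. Of 32851 promoters of the same length, 6.75% hold an AP-1 match, 28.1% KLF, 32.7% SP1 and 12.4% TATA. TEAD (GGAATG, in 12.6% of promoters), STAT (TTCNNNGAA, 7.02%) and HIF (ACGTG, 16.6%) were also searched and were not found in these windows. A match describes letters and is not a measured binding site.

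In microglia, F3 was at 4.09, 3.32 and 2.999 CPM in sham + WT and 38.7 and 15.7 in MCAO/R + WT. Without Lrg1 it was at 6.56, 5.65 and 4.02 after sham surgery and at 14.8, 7.02 and 6.41 after stroke. The MCAO/R + WT mice were highest. F3 rose with stroke in WT by 2.996 ± 0.36 (adjusted p = 8.7e-05). It was lower in MCAO/R + Lrg1-/- than in MCAO/R + WT (-1.75 ± 0.36, adjusted p = 0.0047), and had an interaction of -2.26 ± 0.54 (adjusted p = 0.024). The genotype difference was not called without MCAO/R + WT replicate 1, at -0.91, and the interaction held in 7 of 11 fits that left out 1 mouse (-2.80 to -1.40), not without sham + WT replicate 2 or 3 or sham + Lrg1-/- replicate 1 or 2. The summed astrocyte markers in microglia were at 176 to 182 CPM in sham + WT, 162 to 304 in MCAO/R + WT and 117 to 186 in MCAO/R + Lrg1-/-. The ratio of F3 to them was 0.0165 to 0.0233 in sham + WT, against 0.0320 to 0.0440 in astrocytes, and 0.0518 to 0.240 in MCAO/R + WT, against 0.0488 to 0.0497 in the astrocytes of that group. In MCAO/R + Lrg1-/- it was 0.0489 to 0.0799 in microglia and 0.0363 to 0.0690 in astrocytes, and in sham + Lrg1-/- 0.0217 to 0.0342 and 0.0317 to 0.0572. The highest microglial ratio thus lay above the astrocyte range in both stroke groups, by more in MCAO/R + WT, and the part of astrocyte RNA was not tested.

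Plat (chromosome 8, 22757727 to 22782844, plus strand) encodes tissue-type plasminogen activator. Endothelial cells held 629, 690.3 and 647 CPM in sham + WT and 1225 and 1101 in MCAO/R + WT. In Lrg1-/- mice the level was 316, 361 and 460.0 after sham surgery and 389, 502 and 483 after stroke. All 6 Lrg1-/- mice lay below all 5 WT mice, and the MCAO/R + WT mice were the highest. Plat rose with stroke in WT (0.86 ± 0.17, adjusted p = 0.0029), and in Lrg1-/- mice its change of 0.26 ± 0.16 was not called (adjusted p = 0.25). It was lower in Lrg1-/- than in WT mice after stroke, by a log2 fold change of -1.39 ± 0.17 (adjusted p = 0.00013), and after sham surgery (-0.79 ± 0.16, adjusted p = 0.0038). The interaction, -0.60 ± 0.23, was not called (adjusted p = 0.19).

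The genotype difference of Plat after stroke was called in arterial (-2.05 ± 0.22, adjusted p = 2.9e-05), capillary (-0.99 ± 0.21, adjusted p = 0.0046) and venous cells (-1.04 ± 0.23, adjusted p = 0.0079). Arterial cells had 539.6, 634 and 582 CPM in sham + WT and 1190.3 and 1592 in MCAO/R + WT. The sham + Lrg1-/- mice had 309.7, 374 and 416, and the MCAO/R + Lrg1-/- mice 243, 449 and 272. The interaction was -1.39 ± 0.30 (adjusted p = 0.035). The arterial MCAO/R + WT mice thus stood apart, and the Lrg1-/- groups overlapped each other. The arterial and capillary genotype differences held in each of 5 fits that left out 1 mouse, and the venous difference in 4 of 5 (not without MCAO/R + WT replicate 1). The arterial interaction held in 4 of 11 (-1.81 to -1.19). In capillary cells Plat rose with stroke in both WT (0.86 ± 0.20, adjusted p = 0.0072) and Lrg1-/- mice (0.66 ± 0.19, adjusted p = 0.03), calls that were lost without MCAO/R + WT replicate 1 and without sham + Lrg1-/- replicate 1 or 2 or MCAO/R + Lrg1-/- replicate 2 (lowest value 0.35).

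Plat was also called in other cells of the vessel wall and in glia. Pericytes had 705, 719 and 637 CPM in sham + WT and 1244 and 1266 in MCAO/R + WT (0.88 ± 0.16, adjusted p = 0.0007), and no sham + Lrg1-/- library held enough pericytes. In vascular smooth muscle Plat rose with stroke in WT (0.89 ± 0.15, adjusted p = 0.0011) and Lrg1-/- mice (0.55 ± 0.14, adjusted p = 0.019). The genotype difference after stroke was not called in pericytes (-0.62, adjusted p = 0.074) or in smooth muscle (-0.30, adjusted p = 0.21). In oligodendrocytes it was at 100.2, 86.1 and 91.9 CPM in sham + WT and 152 and 179 in MCAO/R + WT. Levels in Lrg1-/- mice were 42.1, 53.8 and 38.1 (sham) and 52.6, 61.4 and 40.3 (MCAO/R), with all Lrg1-/- mice below all WT mice as in endothelial cells. The genotype difference in oligodendrocytes was -1.62 ± 0.16 after stroke (adjusted p = 6.7e-05) and -1.02 ± 0.16 after sham surgery (adjusted p = 0.0023). In microglia Plat was at 27.6 and 20.999 CPM in MCAO/R + WT and at 5.46 to 15.3 CPM in the other groups (1.41 ± 0.39 with stroke in WT, adjusted p = 0.019, and -1.44 ± 0.39 between the genotypes after stroke, adjusted p = 0.02). The ratio of Plat to the summed endothelial markers in microglia was 0.0294 to 0.0366 in sham + WT, 0.0711 to 0.08004 in MCAO/R + WT and 0.0348 to 0.0452 in MCAO/R + Lrg1-/-. In endothelial cells it was 0.0289 to 0.0318, 0.0572 to 0.0703 and 0.0225 to 0.0351 in the same groups, so the ratios moved together. The part of endothelial RNA in the microglial values was not tested. In oligodendrocytes the ratio was 0.282 to 0.700 in WT mice, above that of endothelial cells. The part of RNA from cells richer in Plat, pericytes among them, in the oligodendrocyte values was not tested. The pericyte call for stroke in WT, that in smooth muscle and all oligodendrocyte calls held in every fit that left out 1 mouse. The smooth muscle call in Lrg1-/- held in 5 of 6 (0.43 without sham + Lrg1-/- replicate 1), and the microglial calls in 1 of 5 (1.15 to 1.63) and 3 of 5 (-2.20 to -1.12).

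Plau (chromosome 14, 20836660 to 20843385, plus strand) encodes urokinase-type plasminogen activator. It was close to the detection limit in endothelial cells, with 0.370 to 1.85 CPM in all libraries. It was called higher with stroke in Lrg1-/- mice there (1.51 ± 0.50, adjusted p = 0.045), not without sham + Lrg1-/- replicate 1 or 2 or MCAO/R + Lrg1-/- replicate 2 (0.77 to 1.81 over all alternatives). Border-associated macrophages, its richest source, held 148, 169 and 144 CPM in sham + WT, 88.3 and 99.1 in MCAO/R + WT, 97.7 and 161 in the 2 sham + Lrg1-/- libraries with enough cells and 58.6 and 59.3 in the 2 MCAO/R + Lrg1-/- libraries. Plau was lower after stroke in both genotypes in these cells (-0.72 ± 0.20, adjusted p = 0.031, and -1.10 ± 0.26, adjusted p = 0.018), kept in 1 of 5 (-0.78 to -0.65) and 2 of 4 fits (-1.44 to -0.76) that left out 1 mouse. In vascular smooth muscle it was instead higher after stroke in Lrg1-/- mice, with 3.54, 11.1 and 6.95 CPM after sham surgery and 22.6, 23.7 and 22.4 after stroke (1.75 ± 0.38, adjusted p = 0.0069), except without sham + Lrg1-/- replicate 1 (5 of 6 fits kept the call).

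Plaur (chromosome 7, 24462484 to 24475968, plus strand) encodes the urokinase receptor, which focuses plasminogen activation at the cell surface. Endothelial cells held 68.4, 58.0 and 47.3 CPM in sham + WT and 473 and 279 in MCAO/R + WT. Of the Lrg1-/- mice, the sham group had 48.4, 55.3 and 98.2 and the MCAO/R group 152, 277 and 192. Every stroke mouse lay above every sham mouse, and the MCAO/R + WT mice lay above the MCAO/R + Lrg1-/- mice by a small gap. Plaur rose with stroke by 2.74 ± 0.33 in WT (adjusted p = 9e-05) and by 1.64 ± 0.31 in Lrg1-/- mice (adjusted p = 0.0028). The genotype difference after stroke was -0.90 ± 0.32 (adjusted p = 0.053), outside the limit for a call (called without MCAO/R + WT replicate 2 or MCAO/R + Lrg1-/- replicate 2, with values from -1.25 to -0.42 over all alternatives), and the interaction was -1.10 ± 0.45 (adjusted p = 0.22).

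In the zones the changes were 2.47 ± 0.29 in arterial (adjusted p = 2.5e-05), 2.83 ± 0.32 in capillary (adjusted p = 2e-05) and 1.55 ± 0.30 in venous cells (adjusted p = 0.0016) of WT mice, and 1.33 ± 0.32, 1.84 ± 0.31 and 0.90 ± 0.29 in those of Lrg1-/- mice (adjusted p = 0.013, 0.0015 and 0.046). Plaur was called higher with stroke in WT in 8 of the 11 cell types tested, with log2 fold changes of 1.505 to 4.09. Outside endothelial cells, 9.11% of all pairs of gene and cell type were called. The lowest change was in vascular smooth muscle, at 7.50, 8.91 and 6.66 CPM in sham + WT and 34.1 and 9.81 in MCAO/R + WT. Replicate 2 of MCAO/R + WT lay close to the sham mice there. The part of RNA from cells richer in Plaur in these counts was not tested. In Lrg1-/- mice Plaur was called higher in 5 of 10, beside 10.1% of all pairs outside endothelial cells. Border-associated macrophages had 15.2, 9.04 and 5.51 CPM in sham + WT and 185 and 67.0 in MCAO/R + WT (3.73 ± 0.41, adjusted p = 3.2e-05). Choroid plexus epithelial cells had 2.22, 2.22 and 1.11 CPM in sham + WT and 34.1 and 37.8 in MCAO/R + WT (4.09 ± 0.65, adjusted p = 0.0058), a call lost without MCAO/R + WT replicate 1. The stroke values rest on 45 and 20 UMIs. The ratio of Plaur to the summed endothelial markers there was 0.00122 to 0.00375 in sham + WT and 0.0374 to 0.0440 in MCAO/R + WT, against 0.00212 to 0.00326 and 0.0145 to 0.0272 in endothelial cells. The part of endothelial RNA was not tested. Between the genotypes after stroke, Plaur was called by edgeR in 0 of 11 cell types, with 2 at an unadjusted p under 0.05 and 0 called by DESeq2. Outside endothelial cells, 13.5% of all pairs were called in that comparison. In fits that left out 1 mouse, the zone calls in WT held in 5 of 5. Those in Lrg1-/- mice held in 3 of 6 arterial (0.82 to 1.74), 6 of 6 capillary and 2 of 6 venous fits (0.59 to 1.26). Monocyte-derived cells, where its level was highest, held 802, 734 and 711 CPM in sham + WT and 756 in the 1 MCAO/R + WT library with enough cells. They held 427 CPM in the 1 such sham + Lrg1-/- library and 386, 417 and 238 in MCAO/R + Lrg1-/-. The ratio of Plaur to the summed monocyte-derived markers was 15.6 to 17.8 in endothelial cells of MCAO/R + WT and 0.0504 in monocyte-derived cells of that group.

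Thbs1 (chromosome 2, 118111876 to 118127133, plus strand) encodes thrombospondin 1, an adhesive platelet and matrix protein that binds CD36 and CD47. Endothelial cells held 1.15, 1.30 and 1.05 CPM in sham + WT and 3.08 and 1.43 in MCAO/R + WT. Without Lrg1 it was at 2.59, 3.89 and 12.2 after sham surgery and at 5.05, 18.1 and 11.9 after stroke. The Lrg1-/- groups lay above their WT groups with no overlap but with a wide spread between mice. Thbs1 was higher in Lrg1-/- mice by 2.38 ± 0.61 after stroke (adjusted p = 0.011) and by 2.27 ± 0.61 after sham surgery (adjusted p = 0.02). The call after stroke was lost without MCAO/R + WT replicate 2 or MCAO/R + Lrg1-/- replicate 2, and that after sham surgery without any 1 of the sham + WT mice or without sham + Lrg1-/- replicate 5. The summed monocyte-derived markers in endothelial cells moved with it, at 18.9 to 24.4 CPM in sham + WT, 15.6 to 30.4 in MCAO/R + WT, 36.6 to 75.8 in sham + Lrg1-/- and 43.3 to 168 in MCAO/R + Lrg1-/-. In MCAO/R + Lrg1-/- the ratio of Thbs1 to them was 0.0776 to 0.117 in endothelial cells and 0.108 to 0.129 in monocyte-derived cells. These ratios cover the stroke group only. Monocyte-derived cells held 85.3 CPM of Thbs1 in 1 sham + Lrg1-/- library, against 775 to 1446 CPM in MCAO/R + Lrg1-/-. The part of monocyte RNA in the endothelial values was not tested.

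Monocyte-derived cells held 108, 44.3 and 19.9 CPM of Thbs1 in sham + WT, 1342 in 1 MCAO/R + WT library, 85.3 in 1 sham + Lrg1-/- library and 775, 1446 and 1184 in MCAO/R + Lrg1-/-. All stroke libraries were far above the sham libraries, and 1423 such cells came from MCAO/R + Lrg1-/- mice, against 32 to 73 from each other group. Thbs1 was called higher between the genotypes after stroke in 5 of 11 cell types. In this comparison 28.4% of all genes were called in endothelial cells and 13.5% of all pairs of gene and cell type outside them. Among the 5 were oligodendrocytes (3.596 ± 0.60, adjusted p = 0.0013), neuroblasts (3.87 ± 0.80, adjusted p = 0.019) and astrocytes (4.27 ± 0.85, adjusted p = 0.022). These calls were kept in 5 of 5, 2 of 5 (2.78 to 4.31) and 3 of 5 fits (3.32 to 4.76) that left out 1 mouse. In astrocytes Thbs1 was at 2.32 and 1.83 CPM in MCAO/R + WT and at 1.87, 72.0 and 38.2 CPM in MCAO/R + Lrg1-/-. Neuroblasts had 1.68 and 1.502 CPM in MCAO/R + WT and 1.39, 16.1 and 40.7 CPM in MCAO/R + Lrg1-/-. In both types replicate 1 of MCAO/R + Lrg1-/- thus lay at the WT level, and the groups overlapped. The ratio of Thbs1 to the summed monocyte-derived markers in MCAO/R + Lrg1-/- was 0.0149 to 0.125 in astrocytes and 0.00444 to 0.0509 in neuroblasts. In oligodendrocytes of MCAO/R + Lrg1-/- the ratio of Thbs1 to the monocyte-derived markers was 0.0746 to 0.0992, near that of monocyte-derived cells, and the part of their RNA was not tested. Thbs1 was called lower in 1, the choroid plexus epithelium, with 43.2 and 148 CPM in MCAO/R + WT and 17.8, 35.0 and 33.7 in MCAO/R + Lrg1-/- (-1.35 ± 0.46, adjusted p = 0.04), not without MCAO/R + WT replicate 2 (-0.32) or MCAO/R + Lrg1-/- replicate 1. After sham surgery the epithelium held 39.4, 35.9 and 38.2 CPM in WT and 8.87, 11.1 and 22.5 in Lrg1-/- mice, with no overlap. Vascular smooth muscle held 191, 287 and 185 CPM in sham + WT and 531 and 292 in MCAO/R + WT. In Lrg1-/- mice the level was 210.2, 292 and 313 after sham surgery and 525, 489 and 527 after stroke. There Thbs1 rose with stroke in both genotypes (0.90 ± 0.23, adjusted p = 0.018, and 0.91 ± 0.22, adjusted p = 0.012), and the calls were kept in 2 of 5 (0.39 to 1.27) and 5 of 6 fits (0.74 to 1.03).

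**Figure D3:**
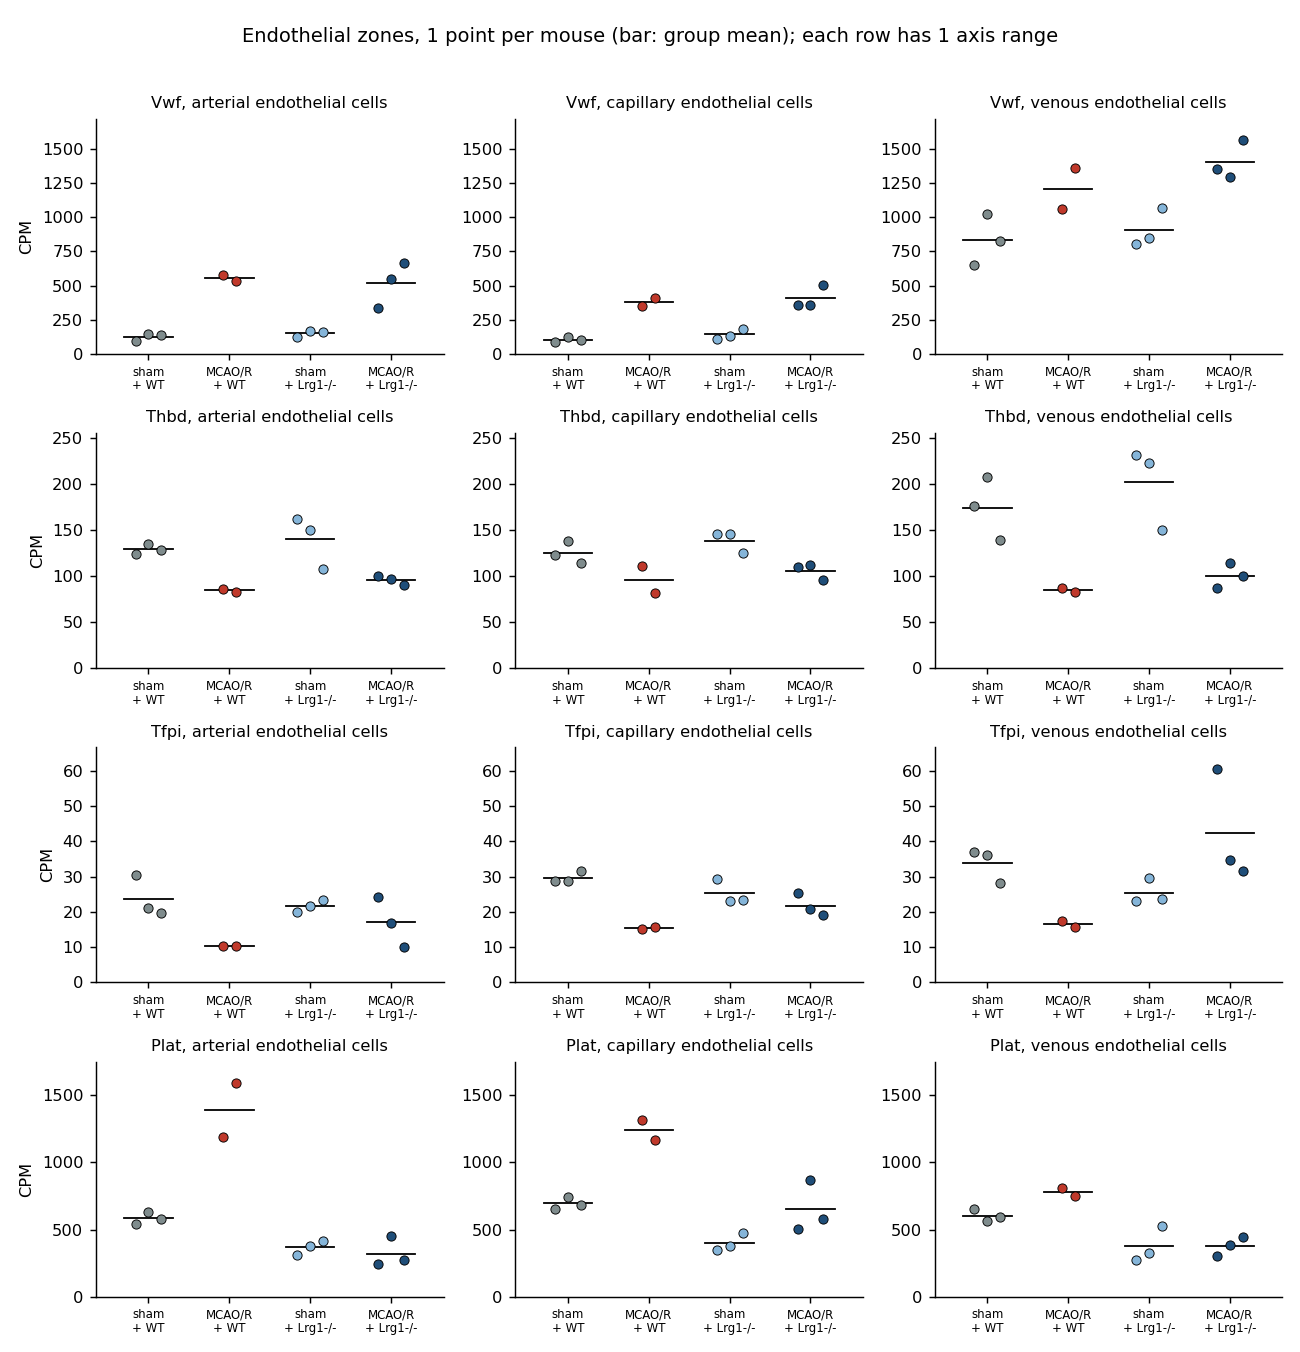
Levels of Vwf, Thbd, Tfpi and Plat in arterial, capillary and venous endothelial cells, in CPM on a linear axis from 0, with 1 point per mouse in the 4 groups and a bar at each group mean. Vwf was higher after stroke in arterial and capillary cells and, by a smaller fold, in venous cells. Thbd was lower after stroke in venous cells, and Plat lower in arterial cells of MCAO/R + Lrg1-/- than of MCAO/R + WT mice.

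The zones were defined without the 9 genes, from endothelial clusters with arterial, capillary or venous markers, and 7 of the 9 genes, without F3 and Plau, passed the filter on low counts in arterial and venous cells. For stroke in WT, 6 of 7 were called in arterial cells (11.1% of all genes), 5 of 9 in capillary (21.5%) and 3 of 7 in venous cells (19.2%). For the genotypes after stroke, 2 of 7 were called in arterial (21.7%), 3 of 9 in capillary (17.8%) and 2 of 7 in venous cells (15.8%). For the genotypes after sham surgery the counts by edgeR were 3 of 7 (16.0%), 1 of 9 (16.1%) and 0 of 7 (9.52%), the last with 2 of 7 at an unadjusted p under 0.05 and 2 called by DESeq2. For stroke in Lrg1-/- mice they were 4 of 7 (11.5%), 6 of 9 (14.9%) and 3 of 7 (16.8%). For the interaction they were 1 of 7 (1.08%), 0 of 9 by edgeR (2.19%, with 2 of 9 at an unadjusted p under 0.05 and 0 called by DESeq2) and 1 of 7 (0.801%). Different clusters held the capillary cells of the groups. In sham + WT 98.5% and in sham + Lrg1-/- 97.4% were in 3 clusters led by Hmcn1, Spock2, Itm2a and Cxcl12, against 0.48% in MCAO/R + WT and 6.29% in MCAO/R + Lrg1-/-. The cells of the stroke groups lay mostly in 2 clusters led by Doc2b, Ccdc141 and Slco1a4. Endothelial cells without a zone were 6.15% in sham + WT, 15.4% in MCAO/R + WT, 12.4% in sham + Lrg1-/- and 54.9% in MCAO/R + Lrg1-/-. The part of these clusters, and of the cells without a zone, in the calls over all endothelial cells was not tested.

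In microglia, the resident macrophages of the brain, all 9 genes passed the filter. For stroke in WT 3 of 9 were called, all higher (F3, Plaur and Plat), beside 21.7% of all genes. For Plat, the endothelial marker ratio given above moved with the call. For the genotypes after stroke the count was 3 of 9 (Thbs1 higher, F3 and Plat lower), beside 21.3%. For the genotypes after sham surgery 1 of 9 was called (Plaur, 23.0% of all genes). For stroke in Lrg1-/- mice the count was 3 of 9 (Tfpi, Thbs1 and Plaur, all higher, 36.3%), and for the interaction 3 of 9 (8.83%). Plaur was at 42.6, 33.2 and 25.2 CPM in sham + WT and 219 and 215 in MCAO/R + WT. The sham + Lrg1-/- mice had 86.1, 61.7 and 81.7, and the MCAO/R + Lrg1-/- mice 169, 185 and 166. Sham + Lrg1-/- mice lay above sham + WT mice, and MCAO/R + Lrg1-/- mice below MCAO/R + WT mice. Plaur rose by 2.70 ± 0.20 in WT (adjusted p = 2.4e-06) and by 1.29 ± 0.19 in Lrg1-/- mice (adjusted p = 0.00022). It was higher in Lrg1-/- mice after sham surgery (0.9995 ± 0.19, adjusted p = 0.0024). The interaction was -1.41 ± 0.27 (adjusted p = 0.012), called in all 11 fits that left out 1 mouse (-1.63 to -1.27).

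Thbs1 in microglia was at 7.44, 5.18 and 5.84 CPM in sham + WT and 9.56 and 3.56 in MCAO/R + WT. Levels in Lrg1-/- mice were 5.44, 6.90 and 2.82 (sham) and 17.4, 23.0 and 25.9 (MCAO/R). The MCAO/R + Lrg1-/- mice lay above all others. The genotype difference after stroke was 1.68 ± 0.38 (adjusted p = 0.0081), the change with stroke in Lrg1-/- mice 2.20 ± 0.39 (adjusted p = 0.00074) and the interaction 2.07 ± 0.54 (adjusted p = 0.035). The first pair of calls held in all 5 and 6 fits that left out 1 mouse, and the interaction in 3 of 11 (1.53 to 3.03). The summed monocyte-derived markers in microglia were at 97.3 to 168 CPM in the other groups and 221 to 347 in MCAO/R + Lrg1-/-, and their part in this result was not tested. Microglia too lay in different clusters. One cluster held 87.7% of those in sham + WT, 53.2% in sham + Lrg1-/-, 0.659% in MCAO/R + WT and 0.718% in MCAO/R + Lrg1-/-. The genotypes also differed after stroke, with 40.6% of MCAO/R + WT and 72.5% of MCAO/R + Lrg1-/- microglia in another cluster and 58.8% and 26.8% in the last. The part of these clusters in the calls for F3, Plat, Plaur and Thbs1 was not tested.

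**Figure D4:**
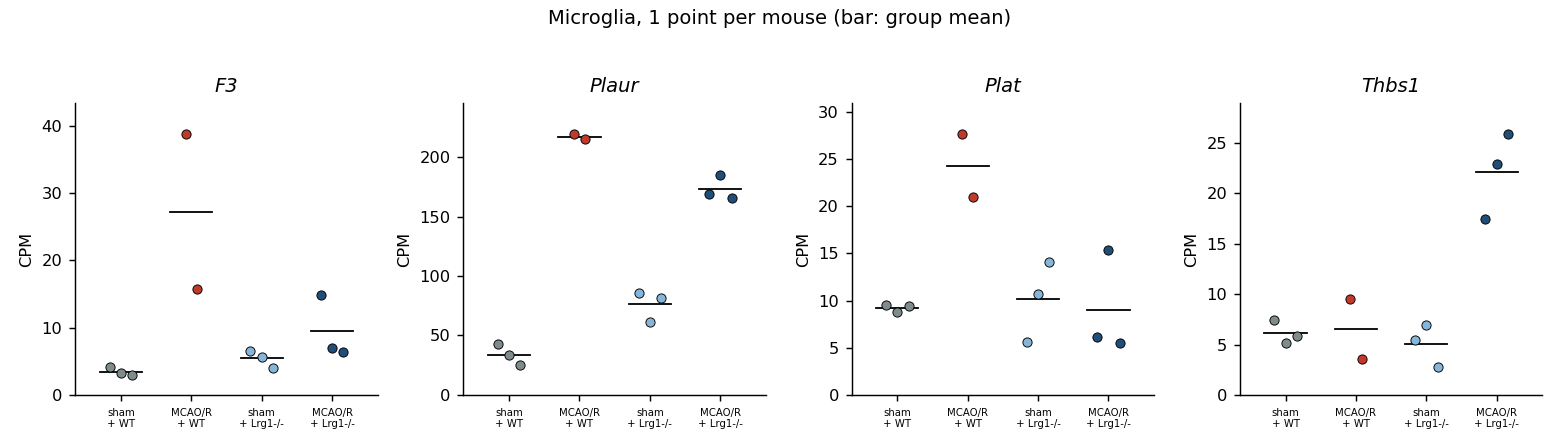
Levels of F3, Plaur, Plat and Thbs1 in microglia, in CPM on a linear axis from 0, with 1 point per mouse in the 4 groups and a bar at each group mean. F3, Plaur and Plat were highest in MCAO/R + WT, and Thbs1 was at 17.4 to 25.9 CPM in MCAO/R + Lrg1-/- and at most 9.56 CPM elsewhere.

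Over the named cell types other than endothelial cells, microglia included, 17 of 82 pairs of gene and cell type were called for stroke in WT, 15 higher and 2 lower, in 10 cell types where 9.11% of all pairs of gene and type tested were called. For the genotypes after stroke 12 of 80 pairs were called, 7 higher and 5 lower (13.5% of all pairs). For the genotypes after sham surgery 6 of 70 were called, 3 in each direction (12.1%), and for stroke in Lrg1-/- mice 13 of 72, 12 higher and 1 lower (10.1%). The members' shares lay above those of all genes for both stroke comparisons and below or near them for the genotypes. This too is a description, since the genes were chosen with earlier results of these data known. For stroke in WT, Plaur made up 7 of the 17 called pairs and Plat 4, and for stroke in Lrg1-/- mice Thbs1 made up 5 of the 13 and Plaur 4.

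**Figure D5:**
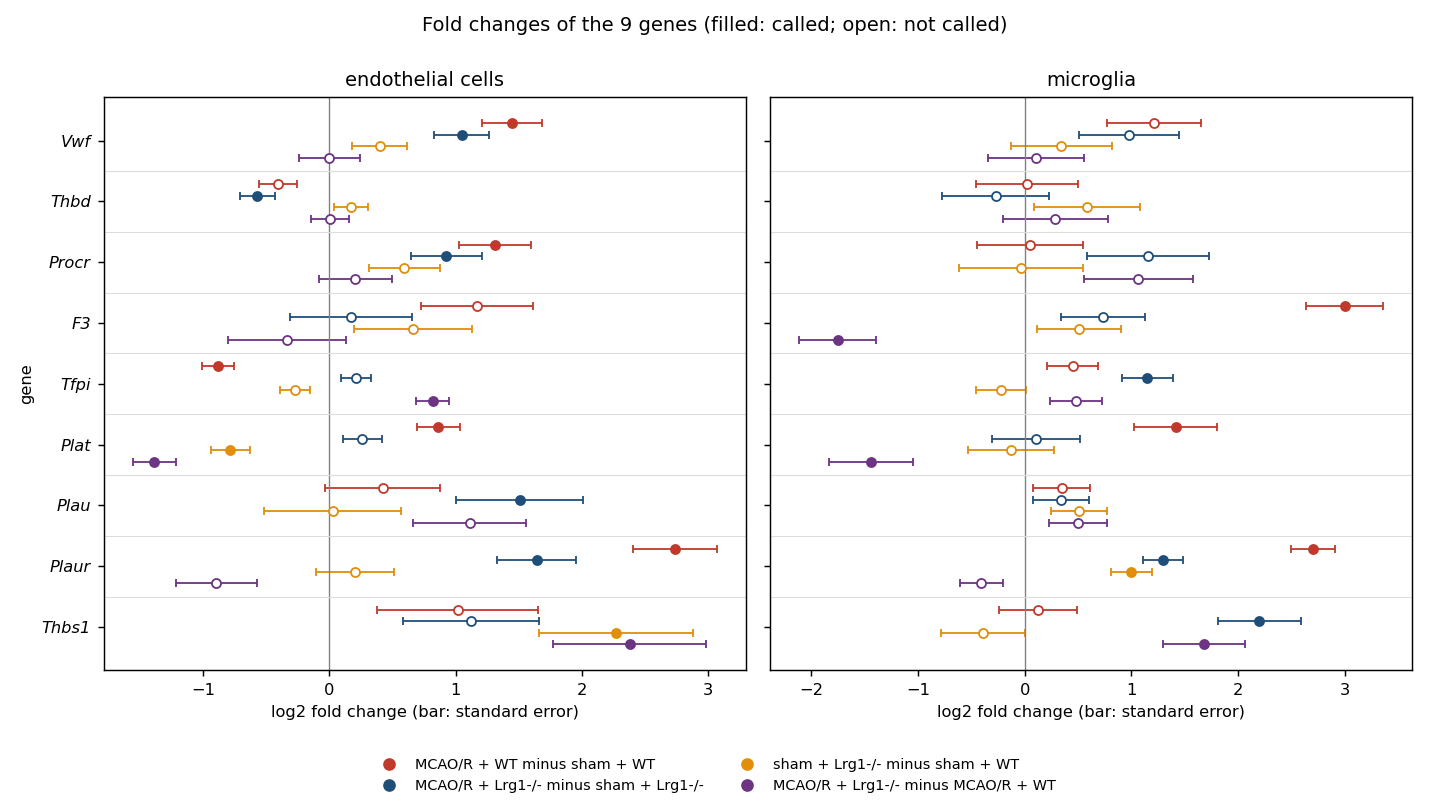
Log2 fold change (x axis) of each of the 9 genes in endothelial cells and microglia for stroke in each genotype and for the genotypes after sham surgery and after stroke, with bars for the standard error and filled points for calls. For stroke in WT, Plaur lies at 2.74 in endothelial cells and 2.70 in microglia, and between the genotypes after stroke Plat lies at -1.39 and -1.44.

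Of 52 other genes of clotting and fibrinolysis that were listed, 30 were tested in endothelial cells. For stroke in WT 5 were higher and 7 lower, beside 21.1% of all genes called. The counts were 8 and 2 for the genotypes after stroke (28.4%), 2 and 1 for the genotypes after sham surgery (18.1%), 8 and 2 for stroke in Lrg1-/- mice (22.3%) and 4 and 1 for the interaction (2.99%). Serpine2, protease nexin 1, which inhibits thrombin and plasminogen activators, was at 42.7 to 46.3 CPM in sham + WT, 167 to 265 in MCAO/R + WT, 35.5 to 45.3 in sham + Lrg1-/- and 35.9 to 40.9 in MCAO/R + Lrg1-/-. It rose with stroke in WT mice (2.32 ± 0.16, adjusted p = 1.3e-06) and had an interaction of -2.41 (adjusted p = 0.00029).

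Anxa2 and S100a10, which form the surface receptor that brings plasminogen and tissue-type plasminogen activator together, were both higher in Lrg1-/- than in WT endothelial cells after stroke. Anxa2 was at 143 to 163, 182 to 299, 144 to 181 and 400.1 to 513 CPM in sham + WT, MCAO/R + WT, sham + Lrg1-/- and MCAO/R + Lrg1-/- (0.85, adjusted p = 0.0083), and S100a10 at 72.8 to 75.0, 79.8 to 87.8, 87.2 to 94.8 and 136 to 201 CPM (0.97). Their levels in the MCAO/R + Lrg1-/- mice did not overlap those of any other group. In microglia, 37 of the listed genes were tested, with 7 higher and 6 lower for stroke in WT, beside 21.7% of all genes called. The counts there were 11 and 3 for the genotypes after stroke (21.3%), 7 and 5 for the genotypes after sham surgery (23.0%), 13 and 4 for stroke in Lrg1-/- mice (36.3%) and 5 and 0 for the interaction (8.83%). Gas6, a vitamin K-dependent ligand, was at 43.3 to 59.7 CPM in MCAO/R + WT and 109 to 157 in MCAO/R + Lrg1-/- (1.31).

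Over the 19 cell types, the genes whose levels followed each of the 9 most closely were found from Pearson's r of log2(CPM + 1). This is a description over 14923 genes, and the types share libraries. Slco1a4 and Slc1a3 below were among the markers that named the cell types, and Tmem252 among those that named the venous zone. Vwf was most like Tmem252 (r = 0.942), Srarp (0.923) and Slco1a4 (0.888), the last an organic anion transporter of brain endothelial cells. Thbd was most like Cd93 (0.891), Vat1 (0.863) and Dusp23 (0.862), and Procr like Cav1 (0.890), Lrrc32 (0.875) and Tinagl1 (0.857). F3 was most like A830019P07Rik (0.909), 8030451A03Rik (0.903) and Slc1a3 (0.897), a glutamate transporter of astrocytes, and Tfpi like Phlda1 (0.857), Mrc2 (0.854) and Eva1b (0.853).

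Of the fibrinolysis genes, Plat was most like Amotl2 (0.928), Itih5 (0.915) and Gng11 (0.911), Plau like Fblim1 (0.886), Paox (0.872) and Cryl1 (0.800), and Plaur like Pmaip1 (0.917), Srgn (0.907) and St3gal1 (0.903). Thbs1 was most like Cebpb (0.819), Vill (0.802) and Il6 (0.791).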

How the data were processed

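Per the labels and the file headers, the authors counted reads of 10x Genomics 3' libraries against mm10 with Cell Ranger (7.0.1 in the matrix headers), and the values they deposited for 11 libraries are UMI counts that were not normalized. The 9 genes, the marker lists and the list of other clotting genes were chosen with earlier results of these data known. Cells with more than 500 genes, more than 1000 UMIs and less than 25% mitochondrial UMIs were kept. Doublets were scored against simulated pairs of cells and removed (expected rate 6%, removed 6555 of 132437 cells). In sham + WT replicate 1 and in replicates 1 and 5 of both Lrg1-/- groups, the cells with the highest scores were removed, up to 6%. An automatic threshold on the scores was used in the other libraries. Cells were clustered (2000 variable genes without the 9 genes and the listed genes, 15 principal components, 3 neighbours per library, Leiden resolution 1.0, igraph 0.11.9) and named from markers. UMIs were summed per library and cell type and tested with edgeR 4.0.16 (TMM, filterByExpr, quasi-likelihood test, all groups in one fit) where both groups had at least 2 libraries with 20 or more cells. The test was checked on simulated counts. Alternatives were DESeq2 1.42.0, other filters and scalings, a replicate block and leaving out each mouse. All 9 genes were named, and of the other genes at most the 6 with the lowest adjusted p per cell type and comparison. Library depth was 37159497 to 171813031 UMIs, so genes at a few CPM rest on few UMIs. Intervals and floors would cover counting error only, and none are given since each value is a level per mouse. The values of 1 of the other listed genes are not reported here.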

Additional observations from a re-analysis of the deposited data

Results flagged for a closer look

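For 6 pairs of gene and cell type the change with stroke differed between WT and Lrg1-/- mice by a test of the interaction (edgeR, adjusted p under 0.05, log2 scale, Lrg1-/- minus WT). Outside endothelial cells 67 pairs were tested. Of all genes, 2.99% were called in endothelial cells, 8.83% in microglia, 1.08% in arterial and 0.801% in venous cells. The zones are parts of the endothelial cells, so Tfpi in venous cells is not separate from Tfpi in endothelial cells. In endothelial cells Tfpi differed by 1.09, and in venous endothelial cells by 1.63. No interaction of Tfpi was called in arterial or capillary cells. Of the endothelial cells, 54.9% in MCAO/R + Lrg1-/- and 15.4% in MCAO/R + WT had no zone, and their part in the value of 1.09 was not tested. In microglia Thbs1 differed by 2.07, F3 by -2.26 and Plaur by -1.41. In arterial endothelial cells Plat differed by -1.39. When 1 mouse was left out, the call for Tfpi in endothelial cells and that for Plaur in microglia held in 11 of 11 fits, F3 in 7 of 11, Plat in 4 of 11, and Thbs1 in microglia and Tfpi in venous cells in 3 of 11 each.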

How the results depend on the processing

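Counts of called genes are given for stroke in WT, the genotypes after stroke, the genotypes after sham surgery, stroke in Lrg1-/- mice and the interaction. In endothelial cells they were 5, 3, 2, 5 and 1 of the 9 genes. As pairs of gene and cell type elsewhere, without the interaction, they were 17 of 82, 12 of 80, 6 of 70 and 13 of 72. Bonferroni adjustment left 1, 1, 0, 0 and 0 in endothelial cells and 3, 1, 0 and 0 elsewhere. Without the filter on low counts the pairs elsewhere were 31, 24, 19 and 27, and the interaction count in endothelial cells was 2. Types named by per-cell marker scores gave 25 pairs for the genotypes after stroke and 19 after sham surgery, fits on the groups of the contrast alone gave 3 and 11, and DESeq2 gave 11 after sham surgery. The filter, the naming of types and the choice of groups can also change how many pairs are tested. The counts under the alternatives are thus not shares and were not set beside those of all genes. The cause of the differences between the counts was not tested. Leaving out 1 mouse gave 5 to 5, 3 to 4, 1 to 2, 3 to 6 and 1 to 1 genes in endothelial cells, and 8 to 18, 5 to 14, 2 to 9 and 5 to 18 pairs elsewhere. For single genes in endothelial cells, 460 of the values under an alternative kept their direction and side of the threshold, 34 lost and 15 gained a call, apart from fits that left out 1 mouse. In those fits 277 kept both, 13 lost and 7 gained a call. In neither set did a value change direction while called. Plaur for stroke in WT and Plat for the genotypes after stroke were called under every alternative run (2.25 to 3.09 and -1.51 to -1.26).

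The replicate numbers were not taken to pair the mice in the main fit. Of 13 same-numbered pairs of libraries, 0 had a correlation of deviations above 0.1 (-0.42 to 0.07). With 2 or 3 mice per group such correlations cannot show whether mice were paired, since the deviations within a group depend on each other. A fit with the replicate block left 1 gene for the genotypes after sham surgery and 3 for stroke in Lrg1-/- mice in endothelial cells, and 10 pairs for stroke in WT and 7 for the genotypes after stroke elsewhere. Depth limits the values of Plau (0.370 to 1.85 CPM) and F3 (1.04 to 4.87 CPM) in endothelial cells, and those of Thbs1 in WT endothelial cells.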
